A study of Mus musculus with 6 samples.

Results

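The angiotensin, endothelin and natriuretic peptide systems were followed through 10 genes (Agt, Ace and Agtr1a; Edn1, Ednra and Ednrb; Nppb, Npr1, Npr2 and Npr3), picked by name from a deposited table of 25746 genes. All 10 were in the table, and 8 of them had enough reads to be among the 12192 genes tested. Their transcripts were measured by RNA-seq, and open chromatin at their promoters by ATAC-seq, which reads where a transposase can insert into DNA. The cells were mouse cardiac fibroblasts lacking Acta2, which encodes smooth muscle α-actin (KO), and wild-type (WT) fibroblasts.

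There were 2 KO and 2 WT RNA-seq libraries and 1 KO and 1 WT ATAC-seq library. Per the labels, fibroblasts of Acta2 fl/fl and of WT mice both received Adeno-Cre, an adenovirus that carries the Cre recombinase, and then TGF-β, for 2 days, in the RNA-seq and the ATAC-seq protocol alike. The same labels call the growth in vivo. They describe tamoxifen, at a daily 75 mg per kg over 5 days beginning at 6 weeks of age, which switches on MerCreMer, infarction by coronary ligation at 9 weeks of age and a second tamoxifen course that ran from 1 day ahead of the infarction until 5 days after it. They also describe sorting of eGFP+ cells of the Tcf21 lineage for both assays. Which of these procedures a given library went through, which promoter drives MerCreMer, and how many animals stand behind a library are not said. Nothing says that replicates came from separate animals or cultures, so p-values here reflect the spread among these libraries alone, which may be technical.

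The peptide systems set vessel tone, salt balance and scarring in the heart. Angiotensinogen (Agt) is cut by renin and then by the converting enzyme (Ace) to angiotensin II, which acts on fibroblasts mainly through the receptor encoded in mice by Agtr1a. Endothelin (Edn1) acts through the receptors Ednra and Ednrb. Both hormones drive G proteins and calcium release, and both are known to promote fibroblast activation. Natriuretic peptides oppose them: Nppb encodes the B-type peptide, Npr1 and Npr2 are receptors that make cGMP, and Npr3 is the receptor that binds natriuretic peptides and removes them.

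The labels were checked before use. Acta2 had 256 and 266 CPM (the count scaled to the size of each library) in KO, against 2186 and 2200 CPM in WT, and was lower in both KO libraries. The libraries held 10864365 to 11370115 estimated counts in KO and 8429166 to 9096811 in WT. Fibroblast markers such as Col1a1, Dcn and Pdgfra were abundant in every library. Their list of 8 summed to 3133 and 3150 CPM in KO and to 4388 and 4319 CPM in WT, with 7 of the 8 lower in KO. Beside the marker counts given here, 18.3% of all tested genes were called higher and 17.4% lower in KO. Endothelial markers, 7 of whose 9 tested genes were higher in KO, summed to 131 and 142 CPM in KO and to 89.0 and 85.7 CPM in WT. Macrophage markers, with 5 of 6 tested higher, summed to 174 and 174 CPM in KO and to 100.2 and 96.5 CPM in WT. Tie1 and Vwf of the endothelial and C1qa of the macrophage markers passed the filter on low counts through the KO libraries alone. Their difference had to lie in that direction for them to be tested at these counts. In these bulk samples fewer cells of a type and less RNA per cell cannot be told apart.

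Of the 8 tested genes, Nppb was higher in KO, Agt and Npr3 were lower, and the other 5 did not pass the test. The threshold was an adjusted p of 0.05 in edgeR's quasi-likelihood test over all 12192 genes, at which 35.7% of all tested genes were called, 18.3% as higher and 17.4% as lower in KO. The 3 calls among 8 are close to that share. Without overlap between the genotypes stood 2 of the 8 higher in KO and 5 lower, against 34.3% and 32.8% of all tested genes. The filter on low counts was passed in all 4 libraries by 5 of the 8. Agt passed it through the WT libraries alone, so that its difference had to lie in that direction for the gene to be tested at these counts.

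**Figure D1:**
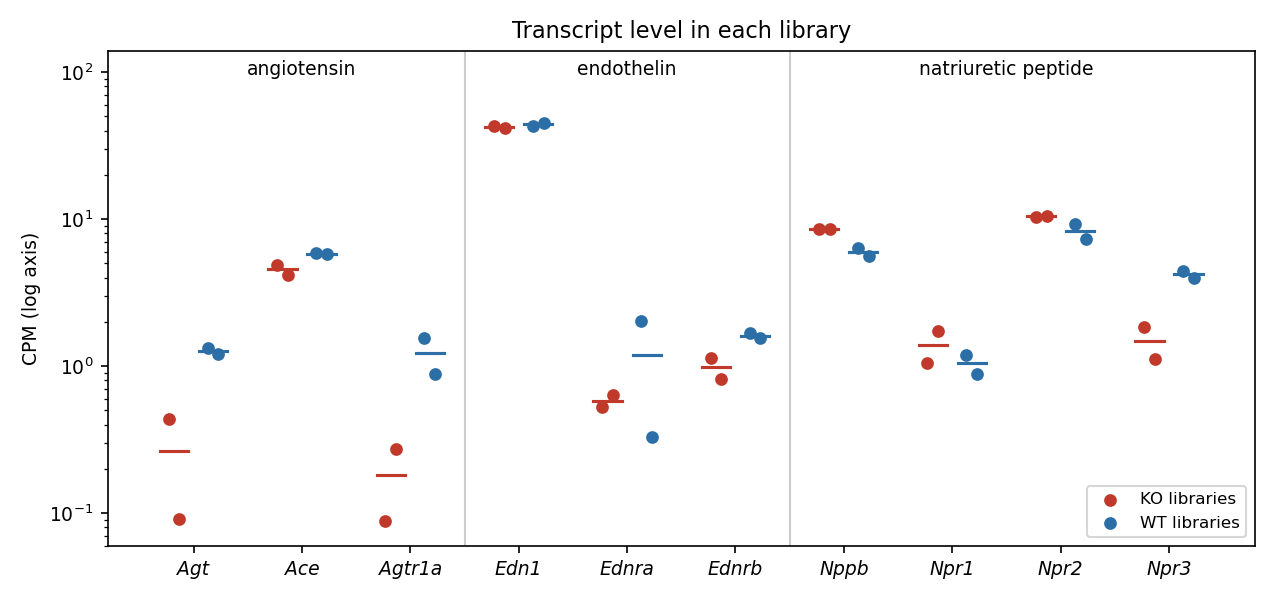
Level of the 10 genes in each RNA-seq library, in CPM on a log axis; each point is a library, KO left of WT, and short lines are means of 2. Edn1 sits near 42 to 45 CPM in both genotypes. Agt, Agtr1a and Npr3 lie lower in both KO libraries than in either WT library. So do Ace, Ednrb and, by a small margin, Edn1.

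**Figure D2:**
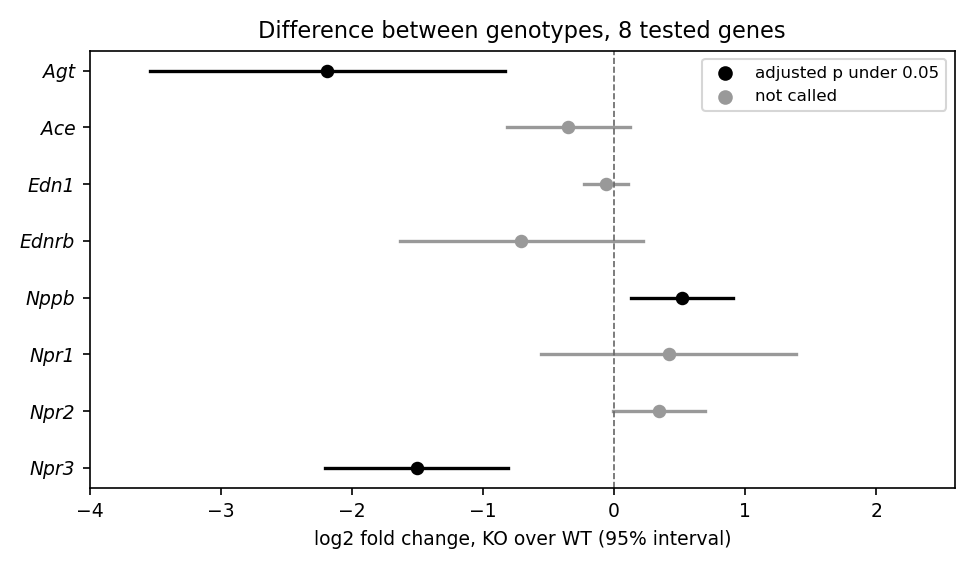
Log2 fold change of KO over WT with its 95% interval (SE times the t quantile, edgeR) for the 8 tested genes; black marks an adjusted p under 0.05. Agt and Npr3 lie below 0 and Nppb above it, and the interval of Edn1 is the narrowest, from -0.23 to 0.10.

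Levels between genes were compared per kilobase of exon, as RPKM. Edn1 was the most abundant of the 10, at 19.8 ± 0.496 RPKM in KO and 20.6 ± 0.686 RPKM in WT (SD, n = 2 each), higher than 77.7% of the tested genes in KO and 78.4% in WT. Nppb followed with 11.0 ± 0.00781 RPKM in KO and 7.68 ± 0.647 RPKM in WT, then Npr2 with 2.24 ± 0.0374 RPKM in KO and 1.77 ± 0.293 RPKM in WT, and Ace with 0.861 ± 0.0948 RPKM in KO and 1.10 ± 0.0167 RPKM in WT. These 4 kept this order in both genotypes, and no neighbours among them overlapped. The other 6 averaged at most 0.291 RPKM in KO and 0.670 RPKM in WT. Their order in KO was Npr1, Ednrb, Npr3, Agt, Ednra and Agtr1a, and every pair of neighbours in it overlapped between libraries. In WT the order was Agt, Npr3, Agtr1a, Ednrb, Npr1 and Ednra, where Agt stood clear of Npr3 and Ednrb clear of Npr1. Per kilobase, the ligand genes Edn1 and Nppb stood above every receptor gene of the group in both genotypes.

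In the angiotensin system, the transcripts of the precursor and of the receptor were scarce, with fewer counts in both KO libraries than in either WT library. Agt (ENSMUSG00000031980; mm10, chromosome 8, 124556534 to 124569706, minus strand) had 5 and 1 estimated counts in KO, against 11 and 11 in WT. That is 0.438 and 0.0913 CPM in the KO libraries, against 1.32 and 1.22 CPM in WT, and the genotypes did not overlap. Its log2 fold change was -2.19 with SE 0.66 (edgeR adjusted p = 0.0107), a level of 0.219 times WT. Agt entered the test through the WT libraries alone, so neither this p-value nor the lack of overlap is independent support for the direction. With so few reads the size is loose: the ratio of summed counts, 6 in KO and 22 in WT, was 0.212 with a 95% counting interval of 0.0703 to 0.539. Without KO replicate 2, which held 1 read, the log2 fold change was -1.50 and its adjusted p 0.138 by edgeR. Without KO replicate 1 these were -3.62 and 0.00676, and DESeq2 on all 4 libraries gave an adjusted p of 0.138.

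Agtr1a, the receptor gene (ENSMUSG00000049115; chromosome 13, 30336441 to 30382867, plus strand), had 1 and 3 estimated counts in the KO libraries, against 13 and 8 in WT. Both KO libraries were below both WT libraries, but only WT replicate 1 reached the minimum of 10 counts that the filter scales to each library, so the gene was not tested. Summed, it had 4 counts in KO and 21 in WT, a ratio of 0.148 with a 95% counting interval of 0.0369 to 0.439, which covers counting error only. When no filter was applied, edgeR gave a log2 fold change of -2.67 with an adjusted p of 0.0130. Pericytes also express this receptor in the heart. Of their 8 markers 4 were tested, 1 of them higher and 2 lower in KO. Among all tested genes 18.3% were called higher and 17.4% lower. All 8 pericyte markers summed to 35.8 and 36.5 CPM in the KO libraries, against 31.2 and 27.4 CPM in WT. Mcam had 22.3 and 22.6 CPM in KO, against 12.2 and 8.85 CPM in WT, and the higher KO sums rest on it. Rgs5 and Cspg4 were called lower, at edgeR log2 fold changes of -0.60 and -0.58, and Notch3 was not called. Kcnj8, which was not tested, had 0 and 0 in KO, against 4 and 1 in WT. None of the untested markers had more than 4 counts in any library. What pericytes contribute to the Agtr1a result was not tested.

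Ace (ENSMUSG00000020681; chromosome 11, 105967945 to 105989964, plus strand) had 56 and 46 estimated counts in the KO libraries, against 49 and 52 in WT, or 4.91 and 4.20 CPM in the KO libraries, against 5.88 and 5.75 CPM in WT. The KO libraries were lower without overlap, yet the difference did not pass the test (log2 fold change -0.35 with SE 0.23, edgeR adjusted p = 0.246). Its 95% interval, from -0.82 to 0.12, holds both no change and a sizeable fall. An antisense gene covers 5.58% of the exon bases of Ace, and since the library kit is not stated to keep strand, its reads could not be told apart.

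Around this core, 11 of 17 other angiotensin and kinin genes were tested, and 5 rose and 2 fell, where 18.3% of all tested genes were called higher and 17.4% lower (median log2 fold change -0.047, against 0.0014 for all tested genes). The 5 that rose were Lnpep and Anpep, aminopeptidases that trim angiotensin peptides, the carboxypeptidase Prcp, Agtrap, whose product binds the angiotensin receptor and promotes its uptake, and the peptidase Dpp3. Lnpep had 36.3 and 40.5 CPM in the KO libraries, against 23.1 and 27.2 CPM in WT (edgeR log2 fold change 0.60 with SE 0.10, adjusted p = 2.38e-05). Anpep, Prcp, Agtrap and Dpp3 had log2 fold changes of 0.47, 0.39, 0.29 and 0.14. Lower in KO were the endopeptidase Nln, at -0.33, and Bdkrb1, the inducible receptor for kinins, peptides that Ace degrades. Bdkrb1 had 0.876 and 1.00 CPM in the KO libraries, against 3.84 and 2.54 CPM in WT (edgeR log2 fold change -1.74 with SE 0.40, adjusted p = 0.00107), while the constitutive kinin receptor gene Bdkrb2 had 4.99 and 3.10 CPM in the KO libraries, against 4.32 and 4.31 CPM in WT and was not called. With DESeq2, 3 of these 7 calls held (Prcp, Lnpep and Bdkrb1), and with a biological coefficient of variation (BCV) of 0.2 assumed in place of the fitted 0.0311, only that of Bdkrb1.

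In the endothelin system, the ligand gene was the steadiest member of the group. Edn1 (ENSMUSG00000021367; chromosome 13, 42301476 to 42307990, plus strand) had 491 and 455 estimated counts in the KO libraries, against 359 and 408 in WT, or 43.0 and 41.5 CPM in the KO libraries, against 43.1 and 45.1 CPM in WT. KO replicate 1 lay just below WT replicate 1, so the genotypes did not overlap, but the difference did not pass the test (log2 fold change -0.06 with SE 0.08, edgeR adjusted p = 0.591). Its 95% interval, -0.23 to 0.10, leaves out a change of 1.5-fold in either direction at the spread of these libraries. Endothelial cells are a known source of Edn1. Of the 10 endothelial markers 7 rose, with Tie1 and Vwf tested through the KO libraries alone. None was at 0 in every library, and the marker sums given above were higher in KO, while Edn1 was not. The part of endothelial cells in the level of Edn1 was not tested. An antisense gene covers 1.64% of the exon bases of Edn1.

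The promoters of the ligand genes Edn1 and Nppb are shown because they are the strongly transcribed members and share the same motifs. The sequences are RefSeq's for GRCm38.p6, from 250 bases before to 50 after the RefSeq start. Capitals mark matches on either strand to the GATA factor motif (AGATAA), the M-CAT motif bound by TEAD factors (CATTCC) and the TATA box (TATAAA). The stretches are chr13:42301226-42301525 on the plus strand for Edn1 and chr4:147985650-147985949 on the plus strand for Nppb.
Edn1: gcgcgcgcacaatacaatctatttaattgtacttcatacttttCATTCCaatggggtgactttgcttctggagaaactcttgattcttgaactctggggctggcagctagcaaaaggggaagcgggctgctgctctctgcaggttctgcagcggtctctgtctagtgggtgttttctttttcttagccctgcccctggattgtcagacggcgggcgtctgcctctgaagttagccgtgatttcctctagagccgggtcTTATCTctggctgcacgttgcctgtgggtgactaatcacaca
Nppb: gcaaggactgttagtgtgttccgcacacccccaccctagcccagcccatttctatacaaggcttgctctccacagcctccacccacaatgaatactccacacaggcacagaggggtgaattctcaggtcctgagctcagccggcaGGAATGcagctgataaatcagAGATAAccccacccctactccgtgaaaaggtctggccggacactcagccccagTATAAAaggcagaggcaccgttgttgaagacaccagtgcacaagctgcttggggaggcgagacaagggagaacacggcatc

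Both windows hold the GATA and the M-CAT letters, and among the 9 genes with a RefSeq entry (all but Agtr1a) only these 2 do. Of 32851 promoters in the table, 11.2% hold the GATA letters and 14.7% the M-CAT letters. Counted from the RefSeq start, the M-CAT match of Nppb begins at -105, its GATA match at -84 and its TATA box at -31. In Edn1 the M-CAT match begins at -207 and the GATA match at 8. The RefSeq start is not always the GENCODE start from which peak distances are counted below. For Nppb the GENCODE start, 147985788, lies before the RefSeq start, and the KO summit of its promoter peak, 147985574, lies before the printed stretch. For Ednrb the RefSeq window, 103843652 to 103843951, leaves out the GENCODE start, 103844402. No member's window held the AP-1 letters (TGANTCA), the SMAD letters (CAGACA) or a CArG box, the binding motif of the actin-regulated factor SRF, which stand in 7.81%, 21% and 1.63% of all promoters. The matches are letters in a window, not measured binding.

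The endothelin receptor genes were near the limit of detection. Ednra (ENSMUSG00000031616; chromosome 8, 77663031 to 77724464, minus strand) had 6 and 7 estimated counts in the KO libraries, against 17 and 3 in WT. The KO libraries fell between the WT libraries, and the gene was not tested. An antisense gene covers 1.66% of its exon bases. Ednrb (ENSMUSG00000022122; chromosome 14, 103814625 to 103844402, minus strand) had 13 and 9 estimated counts in the KO libraries, against 14 and 14 in WT, or 1.14 and 0.821 CPM in the KO libraries, against 1.68 and 1.55 CPM in WT. Both KO libraries were lower, but the difference did not pass the test (log2 fold change -0.71 with SE 0.45, edgeR adjusted p = 0.234; 95% interval -1.63 to 0.22).

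The enzymes that release active endothelin were higher in KO. Both tested genes of this list rose, of 4 listed, where 18.3% of all tested genes were called higher. Ece1, the main endothelin converting enzyme, had 188 and 176 CPM in the KO libraries, against 131 and 128 CPM in WT (edgeR log2 fold change 0.49 with SE 0.050, adjusted p = 8.39e-09). Its related enzyme Ece2 had 4.03 and 3.10 CPM in the KO libraries, against 1.80 and 1.05 CPM in WT (edgeR log2 fold change 1.36 with SE 0.37, adjusted p = 0.00479). Endothelial cells express Ece1 strongly, and the endothelial marker sums were higher in KO as well. Their part in the result was not tested. DESeq2 kept the call of Ece1 and not of Ece2, and an assumed BCV of 0.2 that of Ece2 and not of Ece1.

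Among the natriuretic peptide genes, the peptide gene was higher and the clearance receptor lower in KO. Nppb (ENSMUSG00000029019; chromosome 4, 147985788 to 147987205, plus strand) had 98 and 94 estimated counts in the KO libraries, against 53 and 51 in WT, or 8.59 and 8.58 CPM in the KO libraries, against 6.36 and 5.64 CPM in WT. The libraries did not overlap, and the log2 fold change was 0.52 with SE 0.19 (edgeR adjusted p = 0.0333), a level of 1.43 times WT with a 95% interval of 0.13 to 0.91 on the log2 scale. The call rests on small margins. It was lost with DESeq2 (adjusted p = 0.290), with a BCV of 0.1 or 0.2 assumed, and without KO replicate 1, KO replicate 2 or WT replicate 2 (adjusted p = 0.114, 0.1005 and 0.179), while the direction held under each of these.

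Cardiomyocytes are a known cardiac source of Nppb, and their markers gave a mixed picture. Nppa, the atrial peptide gene, and Pln had 0 counts in all 4 libraries, where 3 counts would be 0.263 to 0.360 CPM, and Myh6 and Myh7 had at most 1 count. Of the 8 listed markers only Tnnt2 was tested. It had 57 and 41 estimated counts in the KO libraries, against 55 and 72 in WT and was called lower, and the list summed to 6.57 and 5.53 CPM in KO and to 8.15 and 8.96 CPM in WT. Tnnt2 was thus present in all 4 libraries, and lower in KO, where Nppb was higher. Tnni3, higher in both KO libraries as Nppb was, had 7 and 6.58 estimated counts in KO, against 2 and 1 in WT. Ryr2 had 3 and 3 in KO, against 0 and 1 in WT, and Actn2 had 1 and 2 in KO, against 0 and 0 in WT. Nkx2-5 had 6 to 10 over the 4 libraries. The part of cardiomyocytes in the Nppb result was not tested.

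Npr3, the clearance receptor (ENSMUSG00000022206; chromosome 15, 11839896 to 11907287, minus strand), was lower in KO, the only call among the members that held under every alternative run. It had 21 and 12.3 estimated counts in the KO libraries, against 36.77 and 36.21 in WT, or 1.84 and 1.12 CPM in the KO libraries, against 4.41 and 4.005 CPM in WT. Both KO libraries were below both WT libraries. The level was 1.48 ± 0.507 CPM in the KO libraries, against 4.21 ± 0.286 CPM in WT (SD, n = 2 each). The edgeR log2 fold change was -1.50 with SE 0.34 (adjusted p = 0.000983), or 0.352 times WT. The 13 alternatives gave log2 fold changes between -1.93 and -1.19 and adjusted p-values up to 0.0259. An antisense gene that starts beside it covers 3.42% of its exon bases, and its reads could not be told apart.

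The cGMP-forming receptors were not called. Npr2, the receptor for the C-type peptide (ENSMUSG00000028469; chromosome 4, 43631935 to 43651244, plus strand), had 118 and 116 estimated counts in the KO libraries, against 77 and 66 in WT, or 10.3 and 10.6 CPM in the KO libraries, against 9.23 and 7.30 CPM in WT. The KO libraries were higher without overlap, at a log2 fold change of 0.34 (SE 0.17, edgeR adjusted p = 0.119; 95% interval -0.0063 to 0.70). Npr1, the receptor for the atrial and B-type peptides (ENSMUSG00000027931; chromosome 3, 90450591 to 90465866, minus strand), had 12 and 19 estimated counts in the KO libraries, against 10 and 8 in WT, or 1.05 and 1.73 CPM in the KO libraries, against 1.20 and 0.885 CPM in WT. The genotypes overlapped, and the log2 fold change of 0.42 (SE 0.48, edgeR adjusted p = 0.531) had a 95% interval of -0.56 to 1.39, too wide to tell a rise from a fall. Antisense genes cover 5.7% of the exon bases of Npr2 and 11.7% of those of Npr1.

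Of 8 other natriuretic peptide genes 4 were tested, none rose and 2 fell (median log2 fold change -0.34), where 18.3% of all tested genes were called higher and 17.4% lower. Pcsk6, the convertase that activates the peptide-cutting enzyme corin, had 5.33 and 3.38 CPM in the KO libraries, against 9.47 and 8.96 CPM in WT (edgeR log2 fold change -1.07 with SE 0.22, adjusted p = 0.000299). Ide, a protease that degrades natriuretic peptides among other hormones, was lower by a log2 fold change of -0.30. Mme, which encodes neprilysin, the other main degrading enzyme, had 4.64 and 5.93 CPM in the KO libraries, against 6.96 and 6.86 CPM in WT and was not called (adjusted p = 0.161 by edgeR). DESeq2 kept the call of Pcsk6 and not that of Ide, and with an assumed BCV of 0.2 neither held (edgeR adjusted p = 0.0520 for Pcsk6).

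Downstream of the receptors, genes of the cGMP arm moved both ways. Of 13 listed 11 were tested, 3 rose and 3 fell (median log2 fold change -0.13), against 18.3% called higher and 17.4% lower among all tested genes. The 4 with the smallest p were Pde1a, a phosphodiesterase that breaks down cGMP, Prkg2, a cGMP-dependent kinase, Mrvi1, a kinase substrate that restrains calcium release, and Gucy1a1, a subunit of the nitric oxide receptor. Pde1a had 20.9 and 18.3 CPM in the KO libraries, against 39.3 and 41.4 CPM in WT (edgeR log2 fold change -1.04 with SE 0.10, adjusted p = 3.18e-09). Prkg2 and Gucy1a1 were lower at -0.78 and -0.76, and Mrvi1 was higher at 1.38, with 3.24 and 4.29 CPM in the KO libraries, against 1.32 and 1.55 CPM in WT. The calls of Pde1a and Mrvi1 held with an assumed BCV of 0.2, and with DESeq2 those of Pde1a and Prkg2.

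The G protein and calcium signalling list, of genes downstream of angiotensin and endothelin receptors, was tested in 27 of 28 cases, and 8 rose and 2 fell (median log2 fold change 0.12), against 18.3% and 17.4% of all tested genes. Among the called genes were Rgs4, which switches off the G proteins of these receptors, and Plcb3, a phospholipase C that they activate. Rgs4 had 51.2 and 52.3 CPM in the KO libraries, against 74.7 and 83.4 CPM in WT (edgeR log2 fold change -0.61 with SE 0.070, adjusted p = 6.37e-08). Plcb3 had 41.0 and 43.4 CPM in the KO libraries, against 28.7 and 27.3 CPM in WT (edgeR log2 fold change 0.59 with SE 0.0895, adjusted p = 6.78e-06). Both kept their calls with DESeq2, and none of the 10 calls of this list held with an assumed BCV of 0.2. Over the 5 pathway lists 18 genes rose and 9 fell of 55 tested, or 49.1% against 35.7% of all tested genes, and that difference in share was not tested.

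**Figure D3:**
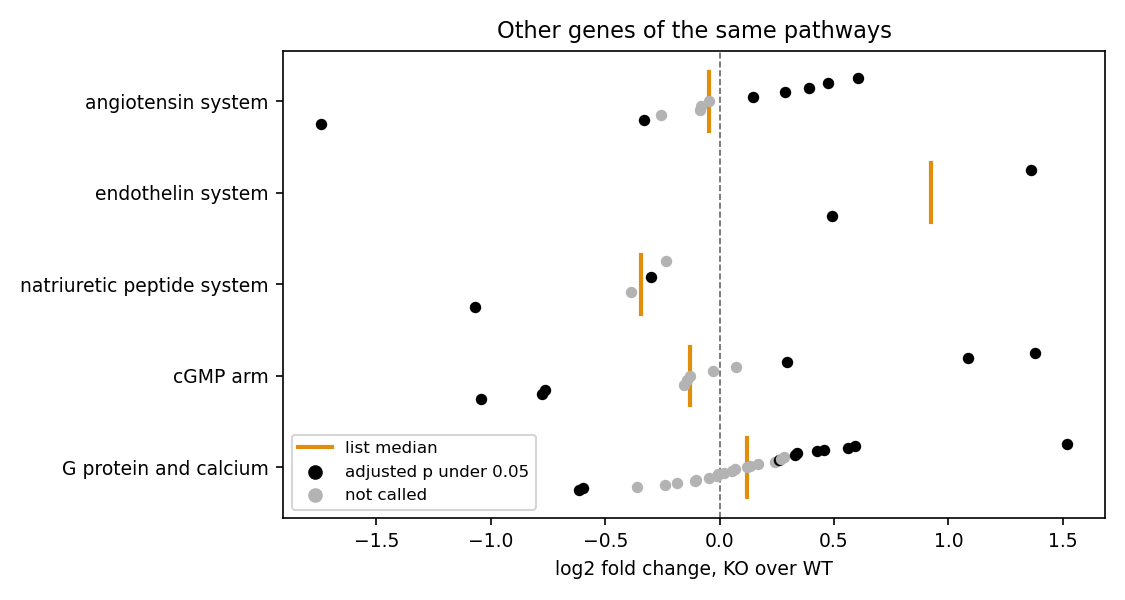
Log2 fold change of KO over WT for the tested genes of the 5 pathway lists; points are genes, black where the adjusted p is under 0.05, and orange lines are list medians. The points reach from Bdkrb1 at -1.74 to Arrb1, an arrestin gene named after its value was seen, at 1.52.

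All 10 genes had an ATAC-seq peak that reached within 1 kb of the start in both the KO and the WT list. Of tested genes, 93.6% had one in KO and 93.6% in WT. A promoter peak was thus present at the scarce transcripts too, Agtr1a and Ednra among them. The fold enrichment at the summit, the authors' own value per peak, ranged from 4.68 at Agt to 20.0 at Nppb in KO and from 4.52 at Agt to 16.0 at Npr1 in WT. For this 1 kb window, the median over tested genes was 21.3 in KO and 18.9 in WT. All 10 stood below it in KO and in WT. With 2 kb either side of the start, Npr3 reached 20.4 in KO and 19.7 in WT. No median over tested genes was taken for that wider window. With 1 library per genotype there is no test, and the values describe these libraries.

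**Figure D4:**
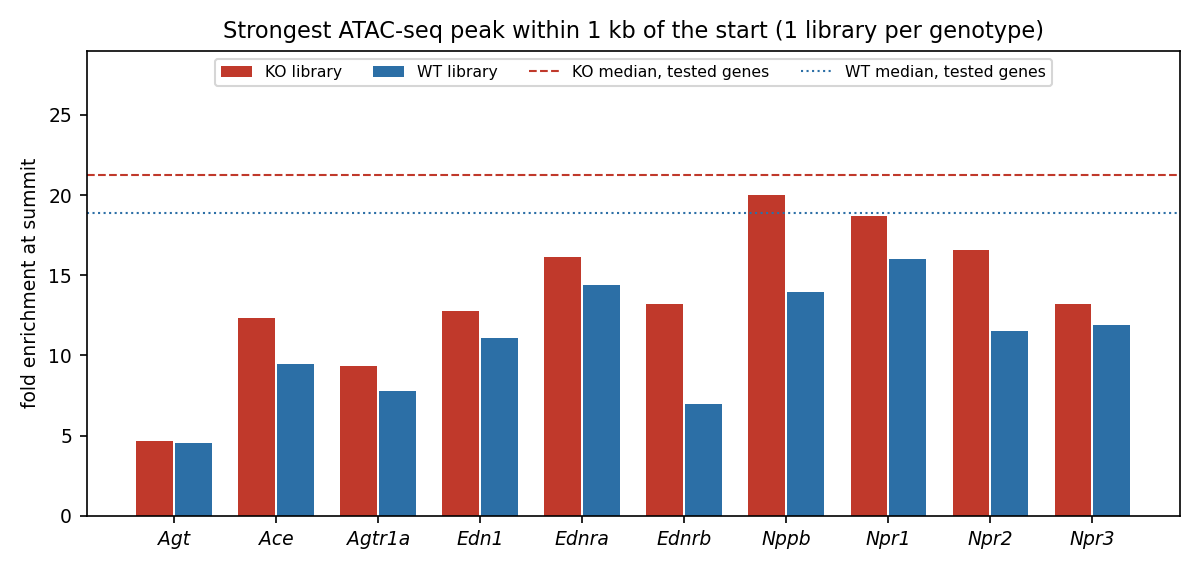
Fold enrichment at the summit of the strongest ATAC-seq peak that overlaps, by at least 1 base, the 1 kb either side of each gene's start. The KO bar is left of the WT bar, 1 library each, with dashed and dotted lines at the medians over tested genes. Ednrb shows the widest gap, 13.2 in KO and 6.98 in WT at different summits, and the bars of Agt are the lowest.

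The KO fold was higher than the WT fold at all 10 promoters, as at most genes. The ratio of KO to WT had a median of 1.13 over 11316 tested genes and quartiles of 0.996 and 1.27. The deposited folds were whole multiples of a step, 0.425 in KO and 0.411 in WT. Agt had 11 steps in both libraries, so its ratio of 1.03 is that of the steps alone. A ratio past 1.5 in either direction was reached by 1 of the 10, Ednrb, and by 7.11% of all genes with a peak in both lists, 6.46% being higher and 0.654% lower in KO. At Ednrb the fold was 13.2 in KO and 6.98 in WT, a ratio of 1.89. The KO summit lay 655 bases after the start, at 103843747, and the WT summit 74 bases after it. The protein-coding transcripts Ednrb-202 and Ednrb-203 start near the KO summit, at 103843696 and 103843695. The ratio thus sets different positions, and possibly different promoters, side by side in its folds. Should the caller add 1 to both pileup and background, these folds stand for 30 fragments in KO (95% counting interval 20.2 to 42.8) and 16 in WT (9.15 to 25.98), intervals that overlap. The higher fold went with 22 RNA counts in KO and 28 in WT, so the peak and the transcript did not differ in the same direction.

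At Nppb the promoter peak (KO, 147984993 to 147986644 on chromosome 4) had a fold of 20.0 in KO and 14.0 in WT, a ratio of 1.43 that was higher than at 90.0% of tested genes. Npr2 was similar, with 16.6 in KO and 11.5 in WT and a ratio of 1.44. Both are genes whose transcripts were higher in both KO libraries, though Npr2 was not called. On the same reading of the folds, Nppb stood for 46 fragments in KO (95% counting interval 33.7 to 61.4) and 33 in WT (22.7 to 46.3). Npr2 stood for 38 in KO (26.9 to 52.2) and 27 in WT (17.8 to 39.3). At both genes the intervals overlap, as at Ednrb. Npr3, whose transcript was lower, had 13.2 in KO and 11.9 in WT at its 5' end, a ratio of 1.11 close to the median. Its summit lay 518 bases after the start in KO, in an exon of its antisense gene, and 173 bases after it in WT. This ratio too sets different positions side by side. Other protein-coding starts of Npr3 lie under a separate, stronger peak, described below. Agtr1a had 9.35 in KO and 7.80 in WT. Ace, Npr1, Edn1 and Ednra had ratios of 1.30, 1.17, 1.15 and 1.12. The Edn1 summits also differed, at 25 bases from the start in KO and at -458 in WT. The Ace peak reached the 1 kb window, but its summit lay outside it, 1519 bases after the start in KO and 1520 in WT.

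The promoter of Agt is printed because it pairs a TATA box, in capitals, with the weakest peak of the group. It is RefSeq's for GRCm38.p6, chr8:124569657-124569956 on the minus strand.
Agt: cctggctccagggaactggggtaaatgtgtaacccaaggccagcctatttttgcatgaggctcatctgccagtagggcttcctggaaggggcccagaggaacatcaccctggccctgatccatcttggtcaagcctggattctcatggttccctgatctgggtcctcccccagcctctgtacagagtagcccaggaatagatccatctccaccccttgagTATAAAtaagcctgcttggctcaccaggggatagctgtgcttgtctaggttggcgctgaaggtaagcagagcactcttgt

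The TATA letters begin at -30 from the start. They stand in 13.6% of all promoters and, in this group, also in those of Ace and Nppb. The start peak of Agt had a −log10 q of 5.01 in KO and 4.73 in WT and was lost when 10 was required. The strongest peak of the Agt locus lay at -4199 bases from the start, between annotated genes, with a fold of 22.5 in KO and 21.4 in WT.

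Across the gene bodies and the 10 kb before them, 28 peaks were shared between KO and WT by at least 1 base, 7 were found in KO alone and 4 in WT alone. The median KO to WT ratio of the shared peaks was 1.12, against 1.10 for all shared peaks of these libraries. Of the 28, 3 were past 1.5-fold higher in KO and 2 past 1.5-fold lower, or 10.7% and 7.14%, where all shared peaks gave 12.1% and 6.75%. Both shares are near those of all shared peaks.

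Among shared peaks with a fold of at least 9 in either library, the ends of the range belonged to Npr2 and Npr3, chosen after their values were seen. A peak in an intron of Npr2 and of its antisense gene, 7271 bases after the start, had a fold of 10.6 in KO and 4.52 in WT, a ratio of 2.35. A peak before Npr3 had its KO summit at -9763 bases from the start, or 11917050, which lies between annotated genes. Its WT summit lay farther out, at 11917483. The fold was 4.25 in KO and 9.86 in WT, a ratio of 0.431. Inside Npr3, a peak in an exon 1867 bases after the start had 20.4 in KO and 19.7 in WT. The sequences from 75 bases before to 75 after the summit in the stronger library show what lies there (GRCm38.p6, plus strand, chr4:43639131-43639281 for Npr2 and chr15:11917408-11917558 for Npr3). Capitals mark the AP-1 letters and, on the other strand, the SMAD letters in the Npr2 stretch. The Npr3 stretch held none of the 6 motifs searched. How often such letters stand in other peak stretches was not counted, so these 2 chosen stretches allow no comparison.
Npr2 intron peak: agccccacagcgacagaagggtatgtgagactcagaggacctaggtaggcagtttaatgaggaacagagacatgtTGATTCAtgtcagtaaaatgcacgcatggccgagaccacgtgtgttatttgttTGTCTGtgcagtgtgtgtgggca
Npr3 upstream peak: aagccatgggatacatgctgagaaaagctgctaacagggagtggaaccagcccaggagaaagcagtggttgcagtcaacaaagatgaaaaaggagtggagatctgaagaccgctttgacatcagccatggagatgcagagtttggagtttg

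**Figure D5:**
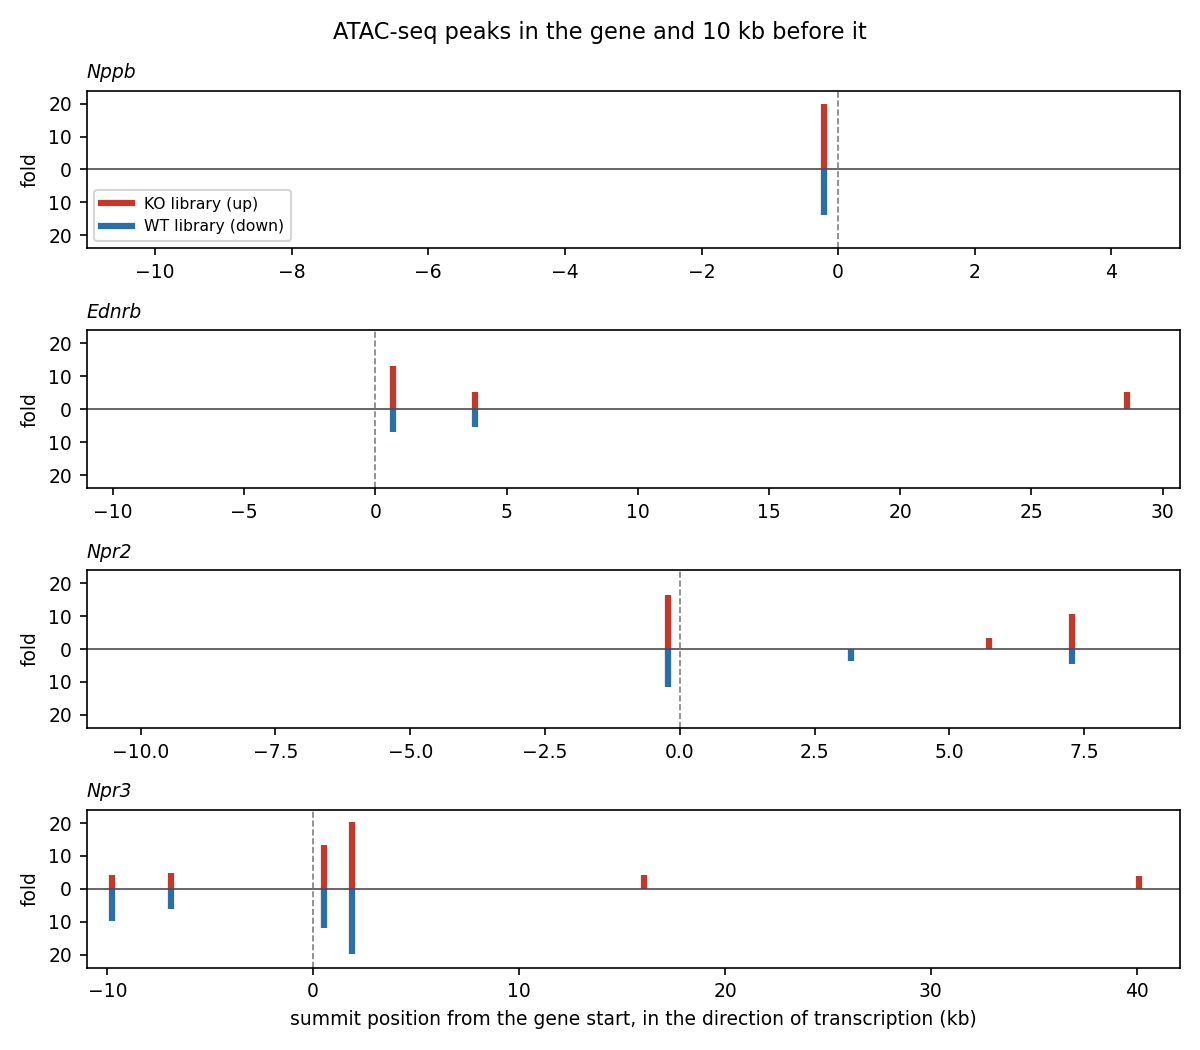
ATAC-seq peaks of Nppb, Ednrb, Npr2 and Npr3 by distance of the summit from the gene's start in kb; bars up are the KO fold and bars down the WT fold, 1 library each, with shared peaks drawn at the KO summit. The Npr2 intron peak reaches 10.6 in KO and 4.52 in WT, and the peak farthest before Npr3 4.25 in KO and 9.86 in WT.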

How the data were processed

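Samples were grouped by labelled genotype, 2 KO and 2 WT for RNA-seq and 1 of each for ATAC-seq. The authors deposited estimated counts per gene (10.8 to 12.2% of values not whole), although the labels' protocols speak of TPM. Per the submitters' processing notes, Trim Galore 0.6 trimmed the reads, and STAR 2.5.3a (RNA) or Bowtie2 2.3 (ATAC-seq) aligned them to mm10. The counting program is not given in the sources used here. Per the labels' protocols, MACS2 called peaks in each sample with no local background. The deposited peak columns hold a score, a fold enrichment (ratio to background), a −log10 p-value and the −log10 of a q-value.

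Counts were rounded, filtered (filterByExpr, minimum 10), scaled by TMM and tested with edgeR 4.0.16 in R 4.3.3, adjusted by Benjamini-Hochberg over 12192 genes. DESeq2 1.42.0 and limma 3.58.1 served as alternatives. RPKM uses TMM-scaled totals and GENCODE M21 exon lengths. M21 coordinates equalled the table's for 25548 of 25746 genes. Its gene 5' ends are the starts.

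The members and lists were chosen with earlier results of these data known. Named are all members, every called gene of the 3 hormone lists, and up to 4 by p from the other 2, less items not reported here. Replicates differed by more than sampling noise (chi-square per degree of freedom 1.99 in KO and 1.77 in WT). The tests were checked on simulated data. Counting intervals cover counting error only.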

Additional observations from a re-analysis of the deposited data

How the results depend on the processing

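Each of the 8 tested genes kept its direction under all alternatives run. The calls of Ace, Edn1, Ednrb, Npr1, Npr2 and Npr3 stayed on their side of the threshold, and those of Agt and Nppb did not. The number of genes called among all was 4352, against 2058 with DESeq2, 1780 with an assumed BCV of 0.1 and 398 with 0.2, and 3391 to 3701 when 1 library was left out. The count of members higher in KO was 1, and 0 with DESeq2 and with either assumed BCV; it was 0 to 1 without 1 library. The count lower in KO was 2, against 1 with DESeq2 and 1 with at least 50 counts in total, where Agt had too few counts to be tested, and 1 to 2 without 1 library. Agtr1a joined the lower calls only when no filter was applied. Scaling by DESeq2 size factors or by library size alone and limma-voom changed no member's call. The replicate numbers are not said to mark a shared animal or day, the replicate differences of KO and WT were uncorrelated over genes (r = 0.0004), and the fit with the replicate block called 4408 genes and the same number of members. Requiring a −log10 q of 10 left 15 of 28 shared locus peaks, a matter of fewer peaks entering. At 1 to 19 counts per library, as for Agt, Agtr1a, Ednra, Ednrb and Npr1, depth sets the width of the intervals.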

Other observations

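Several genes of these systems were at or near 0 in every library and enter no comparison. The renin gene Ren1, the endothelin genes Edn2 and Edn3 and the atrial peptide gene Nppa had 0 counts in all 4 libraries, where 3 counts would be 0.263 to 0.360 CPM. Agtr1b, the second mouse gene for this receptor type, had 6 and 2 estimated counts in the KO libraries, against 1 and 0 in WT. Agtr2 had 1 and 2 in KO, against 0 and 2 in WT. Mas1, the receptor for a shorter angiotensin peptide, had 1 and 3 in KO, against 0 and 0 in WT. Nppc, the C-type peptide gene and ligand of Npr2, had 5 and 3 in KO and 2 and 4 in WT. The chymase gene Cma1, the convertase gene Corin and Ostn, whose product competes for Npr3, had at most 1 count in any library. Of 5 tested mesothelial markers 1 was higher and 4 were lower in KO, against 18.3% and 17.4% of all tested genes. The Schwann cell marker tested was not called.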
